A study of Rattus norvegicus with 9 samples.

Results

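The control cultures of this study were primary pinealocytes of adult Sprague-Dawley rats, transfected with siNT, a non-targeting Stealth siRNA, at 40 nM. They made up 3 of the 9 libraries of the series and were chosen by that label alone. The other libraries came from parallel cultures given an siRNA against the homeodomain factor Lhx4 (siLhx4, 3 libraries) or against the homeodomain factor Bsx (siBsx, 3 libraries). All groups shared papain dissociation of the glands, serum-containing medium, Lipofectamine RNAiMAX and a harvest on the third day, so the siNT group is not untransfected tissue. The labels call the libraries triplicates without naming separate cultures or animals, so every spread given here is one between libraries and may be technical. The labels name no adrenergic agent and no time of day for these cultures, and the share of pinealocytes among the plated cells was not given.

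Pinealocytes make melatonin from tryptophan in successive enzymatic steps that begin with tryptophan hydroxylase. In the rat, noradrenaline released at night by sympathetic nerves acts on adrenergic receptors, raises cyclic AMP and induces Aanat, the penultimate enzyme of the pathway. Pinealocytes share an evolutionary origin with retinal photoreceptors and keep many genes of phototransduction and of the synaptic ribbon, although the mammalian gland is not itself a light-sensing organ.

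Levels are normalized counts, that is, reads per gene divided by a size factor per library by the authors. The siNT mean of each gene was derived from the mean over both groups and the fold change in each of the authors' deposited tables, and the 2 resulting values were averaged. No transcript length was used here, so the levels order genes by the reads they took, not by molecules, and long transcripts take more reads per molecule. In bulk RNA, fewer cells of a type and less RNA per cell cannot be told apart. Among 26854 entries of the tables, 17565 matched a named protein-coding gene and held 34.8% of the summed siNT level. The 6 highest entries were clone-based names without a symbol and held 41.7% of the sum. Of these 6, 4 lay between 4556720 and 4560232 normalized counts, within 0.0771% of each other, and the counting of reads that match several genes is not given in the sources used here. The signal recognition particle RNA entry Metazoa_SRP stood at 2246712, the 5.8S ribosomal RNA entry at 1925546 and 7SK at 443688 normalized counts, in a kit that reads total RNA after depletion of ribosomal RNA. Values per library were used for 14 genes, which held 539365, 724771 and 717314 reads in siNT 1, 2 and 3. At a floor of 20 normalized counts, 12734 named genes (72.5%) were detected, and the median over all named genes was 313 normalized counts. Of the 17565 named genes, 5624 reached 1000 normalized counts. A named gene was under the limit that 3 reads over the 3 libraries allow, 0.869 normalized counts, in 982 cases.

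The label was checked against 5 pinealocyte markers, and all of them lay among the top 2.28% of named genes by siNT level. Tph1, tryptophan hydroxylase, ranked first among named genes and took 1.71% of their summed level. It stood at 435248, 460953 and 470227 normalized counts in siNT 1, 2 and 3, a mean of 455476 ± 18121 (SD, n = 3). The lowest of these libraries still lay far above the level of the second named gene. Aanat stood at 19571, 18472 and 16916 normalized counts in siNT 1, 2 and 3, a mean of 18320 ± 1334 (SD, n = 3), and ranked 153. Asmt, which methylates N-acetylserotonin to melatonin, stood at 10212, 9545 and 10329 normalized counts, a mean of 10029 ± 423 (SD, n = 3), and ranked 401. The library with the highest Aanat level, siNT 1, was the lowest for Tph1, and siNT 2 was the lowest for Asmt. Lhx4, a LIM homeodomain factor of the developing and adult gland, stood at 18963, 18331 and 19156 normalized counts, a mean of 18816 ± 432 (SD, n = 3), and ranked 144. Crx, the cone-rod homeobox factor that drives photoreceptor and pineal genes, had no value per library. Its siNT level was 21532 ± 812 normalized counts and it ranked 95, where the error is the SD between libraries implied by the dispersion behind the standard error in the authors' deposited siBsx table. That dispersion is shared by the siNT and siBsx groups, and errors given below without n are of this kind.

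**Figure D1:**
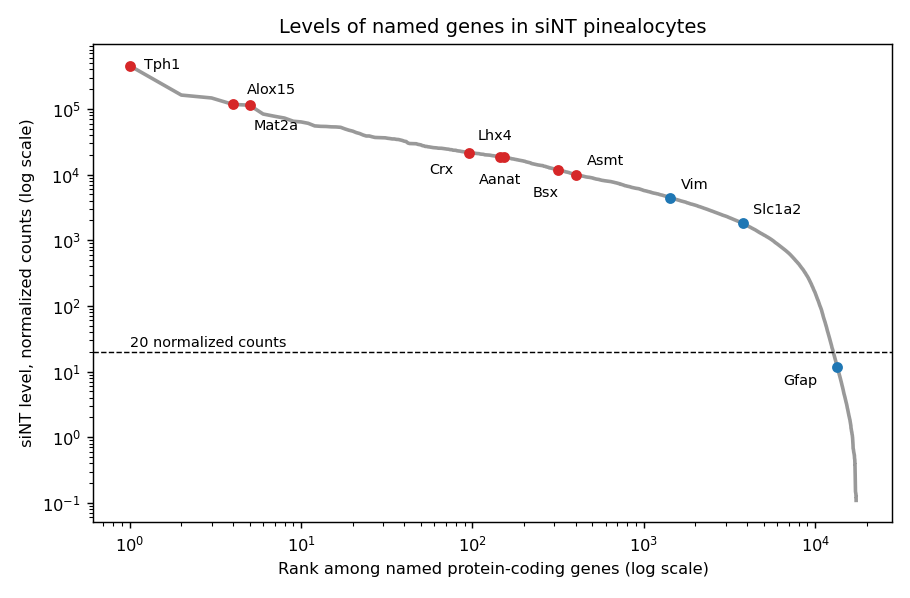
Level of each named gene in the siNT group (normalized counts, log scale) against its rank (log scale), with pineal and highly ranked genes in red and the astrocyte markers Vim, Slc1a2 and Gfap in blue. Tph1 stands first at 455478 normalized counts, Crx, Lhx4 and Aanat lie among the 153 highest, Vim and Slc1a2 are at 4453 and 1812 normalized counts, and Gfap is below the floor of 20 drawn as a dashed line.

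The promoters of the marker genes Tph1, Aanat, Asmt and Crx are shown. Crx, the best known regulator of this tissue, binds sites with the core TAATCC, and cyclic AMP acts through the palindrome TGACGTCA. Both strands were searched for these letters in the RefSeq windows of build GRCr8, from 250 bases before to 50 after each gene's start, and the sequences below are on the gene's strand with matches in capitals. The windows are chr1:106314579-106314878 on the minus strand for Tph1, chr10:102326073-102326372 on the plus strand for Aanat, chr12:21423287-21423586 on the minus strand for Asmt and chr1:85681803-85682102 on the minus strand for Crx.
Tph1: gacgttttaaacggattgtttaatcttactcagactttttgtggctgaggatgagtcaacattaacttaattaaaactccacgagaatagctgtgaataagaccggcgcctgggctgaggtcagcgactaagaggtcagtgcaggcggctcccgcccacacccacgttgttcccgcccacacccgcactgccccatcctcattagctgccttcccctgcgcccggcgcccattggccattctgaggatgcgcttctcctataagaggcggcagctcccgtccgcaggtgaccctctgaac
Aanat: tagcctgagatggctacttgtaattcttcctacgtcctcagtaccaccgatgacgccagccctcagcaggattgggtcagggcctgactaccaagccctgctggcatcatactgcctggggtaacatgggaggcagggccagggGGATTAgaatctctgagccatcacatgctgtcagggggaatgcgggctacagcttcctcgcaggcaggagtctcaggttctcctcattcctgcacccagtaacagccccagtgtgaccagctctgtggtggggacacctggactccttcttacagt
Asmt: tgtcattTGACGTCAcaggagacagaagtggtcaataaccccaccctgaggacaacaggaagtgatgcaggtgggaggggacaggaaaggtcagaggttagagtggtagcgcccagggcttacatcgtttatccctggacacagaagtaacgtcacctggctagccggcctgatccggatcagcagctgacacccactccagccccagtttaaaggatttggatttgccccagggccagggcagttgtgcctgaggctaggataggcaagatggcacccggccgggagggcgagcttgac
Crx: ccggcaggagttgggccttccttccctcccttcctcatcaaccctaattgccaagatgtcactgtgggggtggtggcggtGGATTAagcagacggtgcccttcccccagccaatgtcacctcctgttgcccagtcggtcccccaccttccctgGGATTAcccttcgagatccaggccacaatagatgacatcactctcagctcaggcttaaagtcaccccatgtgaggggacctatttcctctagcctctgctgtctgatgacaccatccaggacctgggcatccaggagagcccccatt
The Aanat window holds GGATTA, the reverse complement of TAATCC, starting at -106 from the gene's start, and the Crx window holds the same letters starting at -170 and at -97. The Asmt window holds TGACGTCA starting at -243, and the Tph1 window holds neither string. The window of Lhx4, the remaining marker, is not shown and also holds neither string. The 2 strings share no base in these windows. Of all 27457 promoter windows, 7.11% held TAATCC and 1.91% held TGACGTCA on either strand. Among the 10006 windows of named genes of at least 20 normalized counts, these shares were 5.46% and 3.16%. Among rod phototransduction genes with a window, 7 of 23 held TAATCC, and these were Gngt1, Pde6a, Cngb1, Gucy2f, Guca1a, Abca4 and Rbp3. Among the 100 named genes of highest siNT level, 4 of 77 with a window did, and among genes of distant tissues 2 of 15. Among the other pineal lists the counts were 0 of 13 for melatonin cofactors, 0 of 17 for the clock, 1 of 19 for transcription factors, 1 of 26 for adrenergic signalling and 2 of 23 for vesicle release. The shares were 1 of 4 for melatonin enzymes, 1 of 6 for cone genes, 2 of 5 for non-visual opsins, 2 of 20 for night-induced genes and 1 of 8 for granins. TGACGTCA was in 1 of 4 windows for melatonin enzymes, 1 of 20 for night-induced genes and 0 of 26 for adrenergic signalling. It was also in 3 of 14 for housekeeping genes and 2 of 4 for sympathetic nerve markers. A match is a string of letters in a window and not a measured binding site. Only exact matches were counted, so near matches, such as tgacgcca in the Aanat window, were left out.

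After Tph1, the highest named genes by reads were a mixture of pineal, neuronal and general cell genes. Map1b, a microtubule-associated protein of neurites, stood at 162723 ± 5677 normalized counts. The lipoxygenase gene Alox15 stood at 117314 ± 4714 normalized counts. Mat2a, which makes S-adenosylmethionine, the methyl donor of the Asmt reaction, stood at 114113 ± 4170. These genes and the neuronal pentraxin Nptx1, at 83727 ± 3965, were among the 5 nearest to Tph1 in the order, and none of them reached its level within the implied SDs. The microtubule-binding Eml5, the chaperone Hsp90aa1, pyruvate kinase Pkm, the elongation factor Eef1a1 and Gnas, which encodes the stimulatory G protein subunit that couples β-adrenergic receptors to cyclic AMP, followed between 60422 and 77327 normalized counts. The remaining 9 of the 20 highest were the kinesin Kif1b, the scaffold Mpp3, Hsp90ab1, the tubulin deglutamylase Agtpbp1, the splicing factor Srrm2, the cytoskeletal linker Dst, the secretory granule protein Ptprn, Plekhb1, which is known from photoreceptors, and the vesicle fusion protein Snap25, from 45922 to 55194 normalized counts. The 10 highest named genes held 5.10% and the 100 highest 15.4% of the summed level of named genes, and 1069 genes held 50% of it.

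Aanat and Lhx4 sat where many genes have similar levels. The 5 named genes nearest to Aanat were Ybx1, Prickle2, Chd2, Ppp1cc and Kif5b, between 18170 and 18470 normalized counts. Those nearest to Lhx4 were Aars, Sik2, Tuba1c, Aff4 and Slc6a6, between 18617 and 19041 normalized counts. Each of these 10 genes lay within the implied SDs of the marker it neighbours.

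The authors chose the 14 genes with values per library on these samples, and 10 of them beyond the markers belong to light signalling or its calcium control. Calm3, a calmodulin gene, stood at 4683, 4574 and 4383 normalized counts in siNT 1, 2 and 3, a mean of 4547 ± 152 (SD, n = 3), and was lowest in siNT 3. Guca1b, a calcium-sensing activator of the photoreceptor guanylate cyclase, stood at 14237, 14865 and 14120 normalized counts, a mean of 14407 ± 401 (SD, n = 3). Gucy2d, which RefSeq lists under the synonym RETGC-1 of the retinal cyclase, stood at 855, 920 and 859, a mean of 878 ± 36.6 (SD, n = 3). Both were highest in siNT 2. Gnat2, the transducin subunit of cones, stood at 10615, 9514 and 10839 normalized counts, a mean of 10323 ± 709 (SD, n = 3). Cngb1, a subunit of the cyclic nucleotide-gated channel of rods, stood at 8332, 7302 and 8641, a mean of 8091 ± 701 (SD, n = 3). Pde6b, a catalytic subunit of the rod phosphodiesterase, stood at 3615, 3211 and 3733, a mean of 3520 ± 274 (SD, n = 3). These 3 genes shared the same order of libraries, lowest in siNT 2 and highest in siNT 3, as did Grk1 and the markers Lhx4 and Asmt. Grk1, a photoreceptor kinase that ends the light response, stood at 4916, 4780 and 4941 normalized counts, a mean of 4879 ± 86.6 (SD, n = 3). Slc24a1, the rod sodium, calcium and potassium exchanger, stood at 3572, 3841 and 3528, a mean of 3647 ± 169 (SD, n = 3). Rcvrn, recoverin, the calcium sensor that restrains Grk1, stood at 518, 580 and 504, a mean of 534 ± 40.3 (SD, n = 3). For Slc24a1 and Rcvrn, siNT 2 was the highest library.

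In the order by mean level, the ranges over the 3 libraries overlapped for 4 of 13 neighbouring pairs, among them Lhx4 with Aanat, Gnat2 with Asmt and Slc24a1 with Pde6b, and were apart for the other 9. The coefficient of variation (CV, the SD as a percentage of the mean) ran from 1.77% for Grk1 to 8.66% for Cngb1, with a median of 4.19%. The CV expected from counting reads alone ran from 0.139% for Tph1 to 4.05% for Rcvrn, and in all 14 genes the variance between libraries was above the counting variance. With siNT 2 left out, the median CV was 1.75%, against 5.23% without siNT 1 and 4.43% without siNT 3. The library siNT 2 was the lowest for 6 genes and the highest for 5. For siNT 3 these counts were 6 and 7, and for siNT 1 they were 2 and 2.

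**Figure D2:**
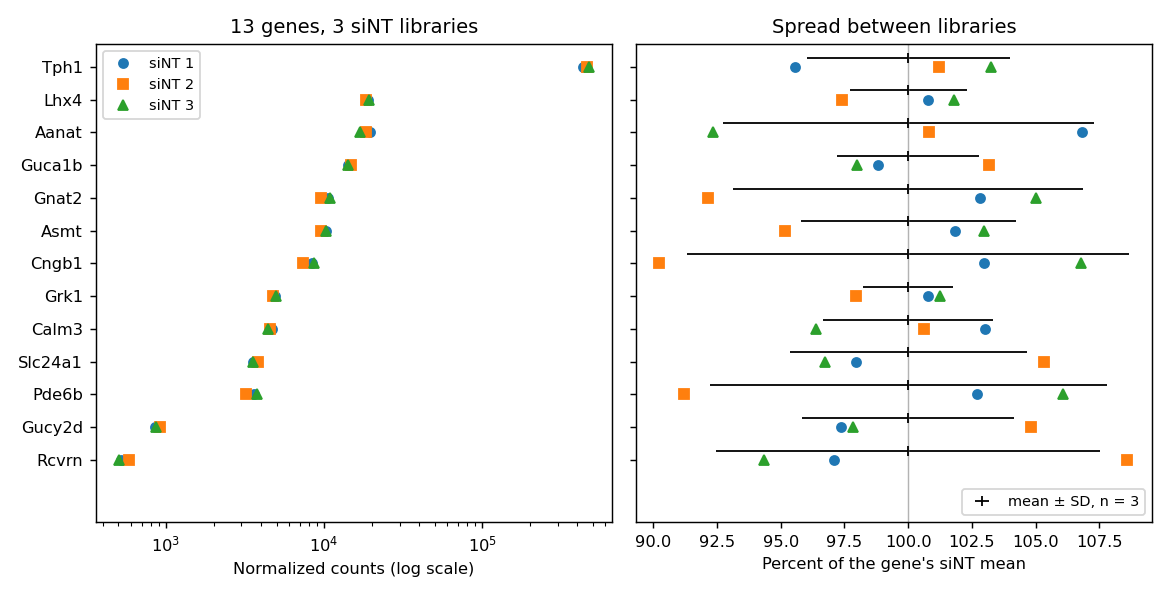
Left, normalized counts (log scale) of 13 of the 14 genes in siNT 1, 2 and 3; right, each library as a percentage of the gene's mean, with the mean and SD (n = 3) as a bar drawn above the points. The SD runs from 1.77% of the mean for Grk1 to 8.66% for Cngb1. The siNT 2 library lies below the others for Lhx4, Gnat2, Asmt, Cngb1, Grk1 and Pde6b. It lies above them for Guca1b, Slc24a1, Gucy2d and Rcvrn.

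All 4 enzymes from tryptophan to melatonin reached 1000 normalized counts. Ddc, the decarboxylase that makes serotonin, stood at 7387 ± 312 normalized counts. All 14 genes of cofactor and substrate supply were detected, with a list median of 2109 against 313 for all named genes. Gch1, the first enzyme of tetrahydrobiopterin synthesis and so of the cofactor of Tph1, stood at 22222 ± 937 normalized counts, and the 14-3-3 gene Ywhae, a member of the family that binds Aanat, at 25689 ± 917. The lowest member was Maob, a monoamine oxidase, at 136 ± 30.2.

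Photoreceptor genes ranged from among the 50 highest named genes to the detection limit. Of 29 rod genes with a value, 27 were detected and 15 reached 1000 normalized counts, with a list median of 1120. Rbp3, the retinoid-binding protein of the matrix around photoreceptors, stood at 28916 ± 1287 normalized counts and ranked 48. Pde6g, the inhibitory subunit of the rod phosphodiesterase, stood at 19794 ± 773, and Rgs9, which speeds transducin shut-off, at 15683 ± 577. Sag, the arrestin of rods, was at 14334 ± 542. In contrast, rod transducin Gnat1 was at 156 ± 30.7 normalized counts, the catalytic subunit Pde6a at 145 ± 34.1 and the channel subunit Cnga1 at 164 ± 26.6. Rlbp1, a retinoid carrier of retinal glia and pigment epithelium, was at 23.1 ± 11.2. The lowest rod members were Gucy2e at 2.24 ± 2.64 and Gucy2f at 1.42 ± 2.16 normalized counts.

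Cone genes spanned a similarly wide range. Of 11 members, 7 were detected, beside 72.5% of all named genes, and 5 reached 1000 normalized counts, with a median of 534. The β subunit Gnb3 stood at 25267 ± 1022, the cone phosphodiesterase Pde6c at 12511 ± 605 and the exchanger Slc24a2 at 7714 ± 329 normalized counts. The cone arrestin Arr3 was at 534 ± 52.4. The cone opsins Opn1sw and Opn1mw were at 19.5 ± 11.9 and 0.675 ± 1.84 normalized counts, Cnga3 at 7.86 ± 8.89, and Pde6h, the inhibitory subunit of the cone phosphodiesterase, at 0.0753. Opn1mw and Pde6h were under the limit that 3 reads allow. Of 5 non-visual opsins, Opn3 stood at 82.1 ± 19.5 and Opn4, melanopsin, at 43.4 ± 17.8, and the other 3 were under the floor, with Opn5 lowest at 3.63 ± 4.92. Among genes of distant tissues, which mark liver, pancreas, pituitary, heart, muscle, lung and kidney, the highest was Pomc at 52.0 normalized counts, so Opn4 and both cone opsins lay below a level that such genes also reached. Further genes known from photoreceptors were seen only after the levels were ranked. They were Casz1 at 34943 ± 1148, Impg2 of the photoreceptor matrix at 23985 ± 1144, the chloride channel Best1 at 21498 ± 1271, the phosphodiesterase chaperone Aipl1 at 20418 ± 903 and Crtac1 at 17889 ± 706 normalized counts.

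Of 22 transcription factors of pineal and retina with a value, 19 were detected and 8 reached 1000 normalized counts. Among all 17565 named genes, 5624 reached 1000. The list median of 300 lay below the 313 of all named genes, so the list as a whole was not high. The highest was Neurod1, a basic helix-loop-helix factor of photoreceptors and pinealocytes, at 23540 ± 1057 normalized counts, followed by Crx and Lhx4. Neurod4 stood at 15986 ± 935 and Bsx at 11836 ± 601. Mitf, a factor of pigment cells, stood at 7920 ± 554, and Rorb, an orphan nuclear receptor of retina and pineal, at 3369 ± 204. Pax6, which specifies eye and pineal early in development, was at 513 ± 50.3 and Rax at 485 ± 51.4. Nrl, the factor that sets rod fate, was at 6.59 ± 5.30 and its target Nr2e3 at 22.3 ± 11.9 normalized counts. Six6, an eye field factor, was lowest at 0.924 ± 1.86.

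The adrenergic pathway was represented at each step. Adrb1, the β1 receptor that carries the night signal, stood at 9404 ± 477 normalized counts and Adra1b, the α1B receptor that enhances it, at 5259 ± 267. The α1A receptor Adra1a was at 280 ± 41.0 and the β3 receptor Adrb3, lowest of the list, at 3.27 ± 5.56. Of the list's 35 genes, 33 were detected and 17 reached 1000 normalized counts, with a median of 889. Downstream, the protein kinase A subunits Prkar1a and Prkaca stood at 7843 ± 321 and 5139 ± 275 normalized counts, and Pde4b, which degrades cyclic AMP, at 9746 ± 528. Of 23 genes known to be induced at night in the rat gland, all were detected and 18 reached 1000 normalized counts, with a median of 2780. Mat2a and Irs2, an adaptor of insulin signalling at 24263 ± 897, led the list with Aanat, and the deiodinase Dio2 was lowest at 101 ± 23.1. Of 23 clock genes, all were detected, with a median of 1954 normalized counts, and the highest were Clock at 6152 ± 302, Cry2 at 4741 ± 220 and Per3 at 4644 ± 235.

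Genes of vesicle release included members of the ribbon synapse. Of 25 genes, 24 were detected and 18 reached 1000 normalized counts, with a median of 4658. Snap25 stood at 45922 ± 1643, the vesicle protein Syp at 17282 ± 752, and Cplx3, a complexin of ribbon synapses, at 16136 ± 880 normalized counts. Bassoon, Bsn, which anchors ribbons, was at 14160 ± 565, and Slc17a7, which loads vesicles with glutamate, at 13795 ± 532. The other ribbon-type complexin Cplx4 was at 6928 ± 381, while the conventional complexins Cplx1 and Cplx2 were at 404 ± 59.0 and 276 ± 36.8. The lowest member, Slc17a8, was at 4.01 ± 5.34 normalized counts. Granins of dense-core granules were among the higher genes, with Chga at 23122 ± 1003, Scg3 at 22967 ± 875 and Chgb at 14545 ± 755 normalized counts, while the prohormone convertases Pcsk2 and Pcsk1 were at 78.0 ± 17.7 and 31.1 ± 14.9. All 10 granin and processing genes with a value were detected.

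Other high genes outside the lists were chosen after their values were seen. Clusterin, Clu, stood at 43597 ± 1693, the nicotinic receptor subunit Chrnb4 at 23448 ± 1100, the receptor Igf1r at 21681 ± 1201, the taurine transporter Slc6a6 at 18617 ± 686, the receptor tyrosine kinase Kit at 17126 ± 673 and transthyretin, Ttr, at 16599 ± 951 normalized counts.

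**Figure D3:**
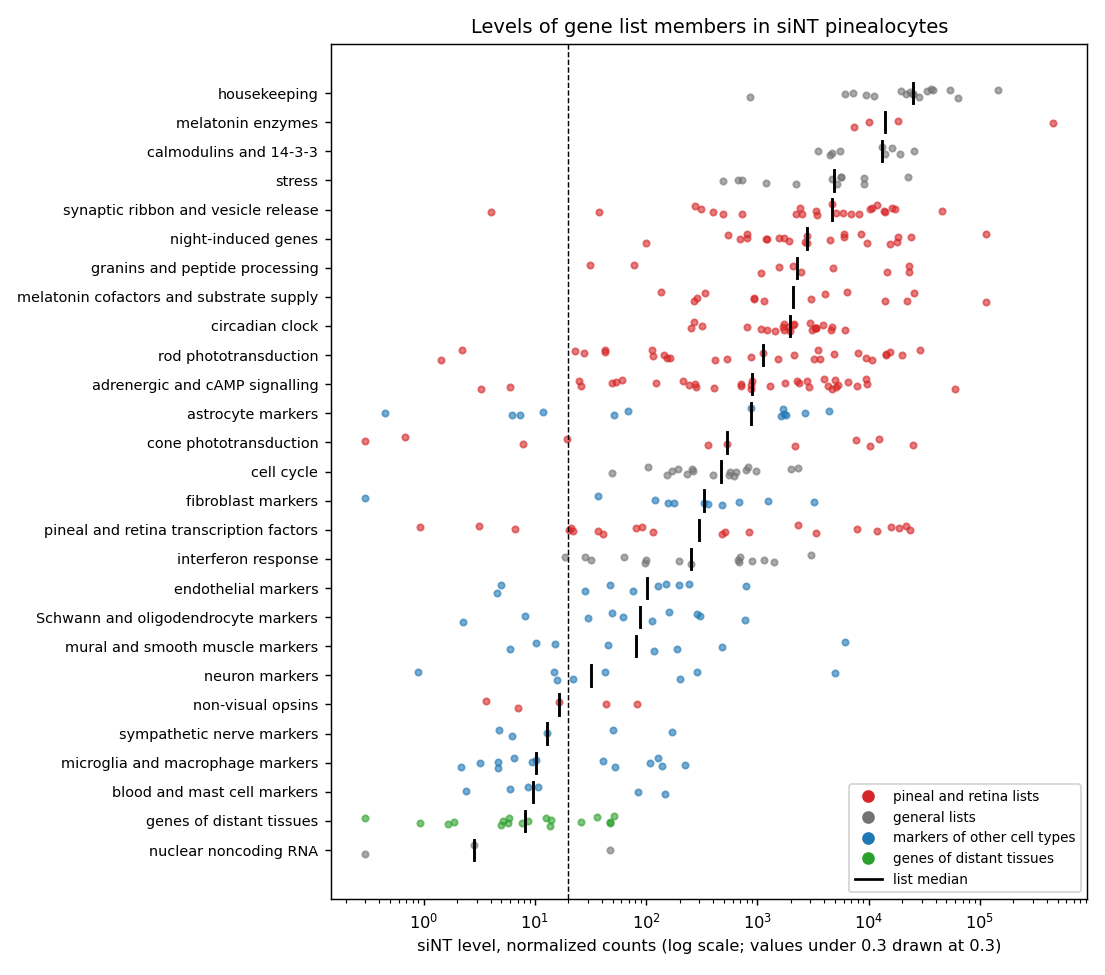
Level of each list member in the siNT group (normalized counts, log scale), 1 point per gene, with the list median as a black bar and the floor of 20 as a dashed line. Medians of 8 of the 11 pineal and retina lists exceed every median of the 9 lists of other cell types, and the exceptions are the cone, transcription factor and non-visual opsin lists. This is not particular to pineal lists. The housekeeping, calmodulin and 14-3-3, and stress lists also exceed them, with medians of 25259, 13300 and 4941. The adrenergic list exceeds the astrocyte list only narrowly, at 889 against 880, and with members under 20 left out the count is 7, the adrenergic and rod lists lying below the astrocyte list and the cone list above it.

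The medians of the 9 lists of markers of other cell types ran from 9.69 to 880 normalized counts. Of 13 astrocyte markers, 9 were detected, with a median of 880 normalized counts. Vim, an intermediate filament gene of many cell types, stood at 4453 ± 306, Apoe at 2666 ± 199 and the glutamate transporter Slc1a2 at 1812 ± 142. Aldoc, Glul and Sox9 also reached 1000, at 1721 ± 143, 1689 ± 124 and 1637 ± 127, and Gja1 was at 880 ± 81.3. Gfap, Aldh1l1 and Aqp4 were at 11.7 ± 7.95, 7.29 ± 6.49 and 6.29 ± 4.54 normalized counts, and Gjb6 was at 0.454, under the limit that 3 reads allow. Of 13 microglial markers, 6 were detected, with a median of 10.3, from Csf1r at 225 ± 39.9, Cd74 at 140 ± 33.3 and Lyz2 at 128 ± 33.1 down to C1qb at 2.16 ± 4.47. Endothelial markers had a median of 102, with Eng at 787 ± 97.0, Cdh5 at 241 ± 42.5 and Kdr at 198 ± 41.8 highest and Cldn5 at 4.62 ± 10.7 lowest. Fibroblast markers had a median of 329, led by Fn1 at 3208 ± 230, Mgp at 1260 ± 131 and Col1a2 at 682 ± 84.0, while Lum was at 0.0754, also under that limit.

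Mural markers had a median of 81.4 normalized counts, and Myh11, the smooth muscle myosin, stood at 6200 ± 387 while Acta2, Cnn1 and Rgs5 were at 15.3 ± 10.2, 10.2 ± 6.83 and 5.93 ± 5.05. Pdgfrb was at 481 ± 62.3 and Cspg4 at 189 ± 44.8. Schwann and oligodendrocyte markers had a median of 87.4, with Cnp at 769 ± 82.0, Ngfr at 307 ± 41.3 and Pmp22 at 288 ± 39.6 highest and Mag at 2.27 ± 2.45 lowest. Among neuron markers, Map2 stood at 5020 ± 250, Nefm at 286 ± 34.0 and Tubb3 at 203 ± 35.6, and Rbfox3, a marker of most mature neurons, at 0.888 ± 1.57 normalized counts. Markers of sympathetic nerves had a median of 13.0, with Slc18a2 at 172 ± 29.6, Npy at 50.7 ± 17.7, Th at 13.0 ± 10.3 and Dbh at 4.74 ± 4.34. Of 6 blood and mast cell genes with a value, Hbb at 147 ± 37.4 and Alas2 at 84.2 ± 23.2 were detected, and Ms4a1 was lowest at 2.42 ± 3.70. The 18 genes of distant tissues had a median of 8.19 normalized counts, and 5 of them reached the floor. Of the 5, Pomc, Myh6 and Apoa1 were highest, and Ins2 was lowest of the list at 0.266. The part of cells other than pinealocytes in the levels of any list was not tested.

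General programmes were measured beside these. Of 17 housekeeping genes with a value, 16 reached 1000 normalized counts, with Eef1a1 and Hsp90ab1 among the highest, and the lowest was the TATA-binding protein Tbp at 853 ± 68.8. All 9 calmodulin and 14-3-3 genes did so, with a median of 13300. Of 18 cell cycle genes, all were detected and 2 reached 1000 normalized counts, with Pcna at 2317 ± 133, Mki67 at 1991 ± 162 and Mcm6 at 973 ± 75.7 highest and Birc5 at 49.6 ± 14.4 lowest. Stress genes had a median of 4941, led by the haem oxygenase Hmox1 at 22482 ± 1371 normalized counts. The heat-shock genes Hspa1b and Hspa1a followed at 9175 ± 609 and 9100 ± 601, values that are uncertain because the copies are nearly identical, and Chac1 was lowest at 488 ± 62.5. Interferon response genes had a median of 252, with Oasl at 3055 ± 214 and Ifi27 at 1158 ± 416 among the highest and Mx1 lowest at 18.6 ± 10.5. Of 10 nuclear noncoding RNAs listed, 3 had a value, with Terc at 47.5 ± 16.4, Snhg11 at 2.84 ± 3.80 and Miat at 0.0741.

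The implied spread fell with level, in part by construction, since it includes a counting error that, as a percentage, falls with level. The dispersion in it was shrunken by the authors' DESeq2 and is not a spread measured on the siNT libraries. The median implied CV was 35.3% for named genes between 20 and 100 normalized counts, 12.3% between 100 and 1000, and 6.03% from 1000 upward. In the 14 genes, the implied CV was between 0.641 and 2.87 times the CV over the siNT libraries, with a median of 1.34 times. Among genes of at least 1000 normalized counts, those with the widest implied spread were Oasl2 at 36.5%, Ifi27 at 35.9% and Herc6 at 27.8%, all known as interferon-induced genes, and Rdm1 at 27.8%. Parp2 followed at 23.7%, with a level of 26515 normalized counts. In RefSeq, Rpph1, the gene of the RNA of ribonuclease P, lies inside the span of Parp2, and the separate entry RNaseP_nuc stood at 123344 normalized counts with a CV of 21.8%. Whether reads of Rpph1 were counted to Parp2 was not tested. Hhip, Pde10a, Bhlha15 and Rtl1 ranged from 15.4% to 21.3%.

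**Figure D4:**
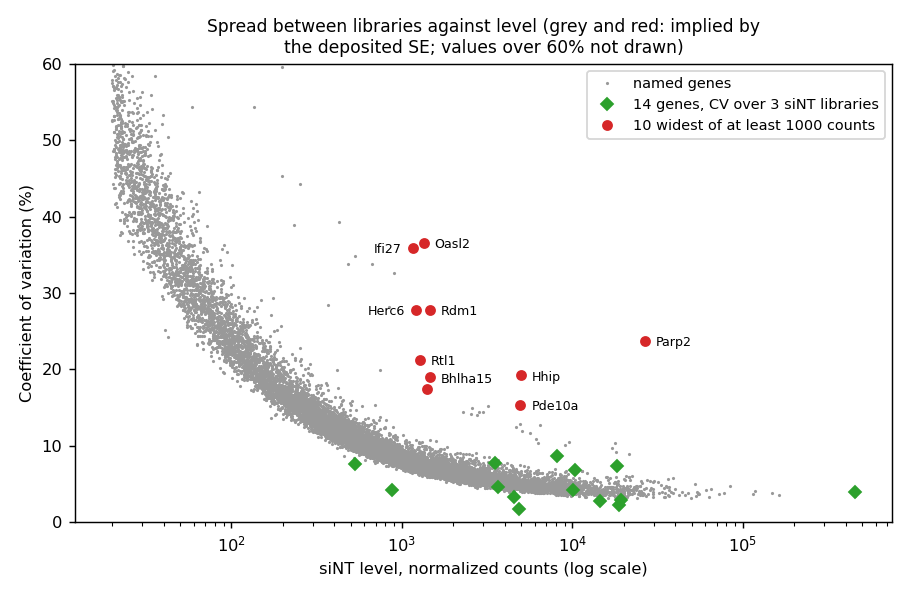
CV between libraries (%) against siNT level (normalized counts, log scale), as implied by the deposited standard error for named genes (grey, with the 10 widest of at least 1000 counts in red) and as measured over the 3 siNT libraries for 14 genes (green). The median implied CV falls from 35.3% between 20 and 100 counts to 6.03% from 1000 counts upward, in part by construction. Oasl2, Ifi27 and Parp2 stand above the band of genes of like level.

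The levels of the markers in the other groups are given for reference. Tph1 stood at 455478, 348154 and 415142 normalized counts in siNT, siLhx4 and siBsx. Aanat stood at 18319, 12274 and 15323, Asmt at 10027, 7783 and 11080, and Crx at 21532, 19912 and 18820 normalized counts in the same order. Lhx4, the target of siLhx4, stood at 18816, 3534 and 20782 normalized counts. Of the 100 highest named genes in siNT, 83 were also among the 100 highest in siLhx4 and 84 in siBsx. With siLhx4, the authors' deposited table called 47 of the 100 (DESeq2 adjusted p under 0.05), 10 higher and 37 lower, beside 17.7% of the 14876 genes tested, 8.07% higher and 9.59% lower. With siBsx, the authors' deposited table called 48 of the 100, 17 higher and 31 lower, beside 17.2% of the genes tested, 7.59% higher and 9.61% lower. The share called rose with level among named genes, from 5.87% under 100 normalized counts to 44.6% at 10000 or more with siLhx4, and from 3.63% to 44.6% with siBsx. The 100 highest genes were thus called about as often as other genes of their level, and nothing is read from their count. Both comparisons share the siNT libraries.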

How the data were processed

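Total RNA of 9 libraries was depleted of ribosomal RNA and sequenced with a stranded kit, per the labels' protocols. The submitters' processing notes name build rn6, DESeq2 1.16.1, Subread 1.5.2, featureCounts, STAR 2.5.4a and bcl2fastq 2.20.0.422; annotation, strand and multi-mapping settings are not given in the sources used here. The deposited signal values are the authors' normalized counts, as means over both groups of a comparison for all genes and per library for 14 genes. The deposited log2 values are the authors' fold changes and standard errors, and the deposited p-values, unadjusted and adjusted, are the authors'.

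The siNT level was 2 × mean/(1 + 2 to the power log2 fold change), averaged over both tables, whose values had ratios from 0.984 to 1.02 at 20 normalized counts or more, and it differed from the mean over libraries by at most 0.0912% in the 14 genes. Dispersions, and from them implied SDs, were solved from the siBsx table's standard errors. The inversion was run on simulated data whose standard errors were built from known dispersions with the same formula. No dispersion was estimated there, so that run checks the algebra and not the implied SDs. Multiplying by size factors of 0.972, 1.26 and 1.22 gave whole reads in all 14 genes (tolerance 1e-06), the lowest gene having 504 to 729 per library; these cover depth only for the 14 genes, and library totals were not used here. Limits of 3 reads cover counting error only. Named genes were RefSeq protein-coding genes matched by symbol (15943) or synonym (1622), without locus identifiers. The text names the markers, the 20 highest named genes, the 14 genes, the 3 highest and the lowest member of each list, markers at 0, the 5 neighbours of Tph1, Aanat and Lhx4, and genes whose role completes a list, chosen after their values were seen. Some genes that these rules cover are not reported here. Members and lists were chosen with earlier results of these data known. No test was run. Python 3.11.15, numpy 2.4.6 and pandas 2.3.3 were used.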

Additional observations from a re-analysis of the deposited data

How the results depend on the processing

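From either table alone, all 391 gene levels, the 27 list medians, the members of the 100 highest named genes and the share of the 10 highest entries were within the stated spread of the averaged values. Both tables rest on the same siNT libraries, so this closeness was fixed beforehand and checks only how the level was derived. The number of detected named genes was 14614 at a floor of 5 and 11559 at a floor of 50 normalized counts, against 12734 at 20. The 10 highest entries held 50.6% of the summed level of all entries, and the 10 highest named genes 5.10% of the sum without entries lacking a symbol; the alternative changes both the entries and the sum. The means of the 14 genes stayed within 1 SD when any siNT library was left out. With 3 libraries the mean cannot move that far, so nothing is read from this. Their median CV, 4.19% with all libraries, ran from 1.75% without siNT 2 to 5.23%, and the cause was not tested. With members under 20 normalized counts left out, 16 of 27 list medians moved, and 7 in place of 8 of the 11 pineal and retina lists exceeded every list of other cell types. The astrocyte median was then 1689, the rod and adrenergic medians lay below it at 1537 and 1292, and the cone median rose from 534 to 7714 and above it. Levels divided by transcript or coding length were planned and not run, since no lengths for build rn6 were used here. No paired analysis was possible because no test between groups was run here: the calls with siLhx4 and siBsx are the authors' and were not refitted.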
